A study of Homo sapiens with 4 samples.

Results

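Of 3949 designed RNA sequences in an in vitro m6A assay, 6 sequences, held by 18 of the 11999 oligonucleotides, are described here, because their whole crosslink signal differed between RNA treated with the m6A writer and untreated RNA. They come from NFYA, DLX1 and RBM23, where the signal was lower in the methylated libraries, and from GNL3L, CCNQ and ZC3H18, where it was higher. The members were taken by the genomic coordinate of the adenosine each sequence was designed around, and these loci had been picked for the size and direction of their change in these same libraries. Their totals and single positions are therefore given as a description, without a test in support of the change. The study was made to learn whether METTL3–METTL14 alone sets which sequences are methylated.

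Both groups held the same purified pool of RNAs transcribed in vitro from a designed oligonucleotide library. The unmethylated group was RNA incubated without the recombinant METTL3–METTL14 complex, and the methylated group was RNA incubated with it, with 2 libraries in each. Both went through miCLIP2 with 500 ng of RNA and the same m6A-specific SySy antibody. Each RNA carried a transcript region, a molecular tag and a linker, and each of the 6 sequences was present as 3 copies that differed in the tag. There were no cells in this assay, so neither transcription nor decay of these genes was measured. A count stands for a reverse transcription stop at 1 of 141 positions of a sequence. Positions are numbered here from the selected adenosine, which is 0, so that a sequence runs from −50 at its 5′ end to +90. No library of the input pool was analysed here, so a level combines the amount of an RNA in the pool with its recovery.

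METTL3 is the catalytic subunit and METTL14 the RNA-binding partner of the complex that writes N6-methyladenosine (m6A) into messenger RNA, mainly at DRACH motifs, in which D excludes C, R is a purine and H excludes G. In miCLIP, an antibody against m6A is crosslinked to the RNA by ultraviolet light, and reverse transcription tends to stop at the remaining peptide, next to or at the methylated base. The antibody can also be crosslinked elsewhere along an RNA, which gives counts at positions other than the motif. DRACN below stands for the same motif with any last base.

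All 6 loci lay in exactly 1 RefSeq gene by coordinate (assembly GRCh38.p14), and exon or intron was not assigned here. NFYA encodes the subunit of the NF-Y transcription factor that recognises CCAAT boxes, and the adenosine its sequence was designed around has coordinate 41098337 on chromosome 6 (plus strand; positions −45 to +90 at chr6:41098292-41098427). DLX1, a homeobox transcription factor of forebrain and craniofacial development, has its adenosine at coordinate 172085985 on chromosome 2 (plus strand; chr2:172085940-172086075). RBM23 encodes an RNA-binding protein, with the adenosine at coordinate 22909517 on chromosome 14 (minus strand; chr14:22909427-22909562). GNL3L, a nucleolar GTP-binding protein gene, has it at coordinate 54562436 on chromosome X (plus strand; chrX:54562391-54562526). CCNQ encodes cyclin Q, the partner of the kinase CDK10, with the adenosine at coordinate 153594671 on chromosome X (minus strand; chrX:153594581-153594716). ZC3H18, a zinc finger protein that links the cap-binding complex to nuclear RNA decay, has it at coordinate 88608951 on chromosome 16 (plus strand; chr16:88608906-88609041). By design, NFYA, DLX1 and GNL3L belong to the class around m6A sites of HEK293T, a line of human embryonic kidney cells, and RBM23, CCNQ and ZC3H18 to the class around adenosines found unmodified there.

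The 3 sequences that were lower in the methylated libraries are shown for their stretches of A and G, 5′ to 3′ in DNA letters as deposited, with every run of at least 8 purines in capitals. DLX1 and RBM23 are whole, and of NFYA positions +36 to +65 are shown. The opening AG of the NFYA stretch is the end of a run that starts at +29, before the part shown.
NFYA: AGtGGGGGAGAGGAAGAGAGAGAGAGAGca
DLX1: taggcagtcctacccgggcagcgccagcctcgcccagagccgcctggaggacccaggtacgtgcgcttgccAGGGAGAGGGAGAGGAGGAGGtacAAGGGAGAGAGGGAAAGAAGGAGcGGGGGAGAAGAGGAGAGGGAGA
RBM23: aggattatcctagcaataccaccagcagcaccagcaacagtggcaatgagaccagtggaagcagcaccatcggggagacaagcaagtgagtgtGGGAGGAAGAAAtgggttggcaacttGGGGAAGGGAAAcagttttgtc

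The 3 sequences that were higher are shown for their DRACN motifs, which are in capitals. CCNQ and ZC3H18 are whole, and of GNL3L positions −3 to +26 are shown, which hold both of its GGACU motifs (ggact in the deposited letters).
GNL3L: aGGACTggagtgccattggctgtGGACTgt
CCNQ: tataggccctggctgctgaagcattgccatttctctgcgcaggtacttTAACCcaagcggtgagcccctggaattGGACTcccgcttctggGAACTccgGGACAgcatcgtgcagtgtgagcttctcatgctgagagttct
ZC3H18: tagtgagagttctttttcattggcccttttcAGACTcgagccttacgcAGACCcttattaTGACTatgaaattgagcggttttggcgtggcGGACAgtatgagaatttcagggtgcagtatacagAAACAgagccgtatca

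The opening bases need not be genomic. Of 76 loci that could be set against RefSeq promoter sequences, 37 differed from them, in each case within positions −50 to −46 and not after. The start TAG of DLX1 and ZC3H18 was shared by 731 of the 3949 sequences, and the start TATAG of CCNQ by 676.

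Total counts were 10483825 and 12028474 in the libraries made without the complex and 13110615 and 13265092 in those made with it. Levels are given as CPM, the count scaled to the total of its library. Over the 3248 sequences with a mean of at least 100 counts per library, the median log2 ratio of methylated to unmethylated mean CPM was 0.01, with quartiles of −0.22 and 0.27. As a CPM is a share of its library, a locus also moves when others do. The labels do not tell whether the replicates began as separate methylation reactions, so the spread given here may be technical.

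NFYA had the lowest ratio of the 3248 sequences. Its counts were 1603 and 1382 without the complex and 172 and 210 with it. Both methylated libraries lay far below both unmethylated ones, at 14.5 ± 1.92 CPM against 133.9 ± 26.9 (SD, n = 2 each), which is 9.25-fold lower.

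DLX1 was by far the most abundant of the 6 in both groups. It held 58187 and 76282 counts in the unmethylated libraries, then 10982 and 10742 in the methylated ones. The groups did not overlap, with 5946 ± 560 CPM against 823.7 ± 19.7 (SD, n = 2 each), 7.22-fold lower. RBM23 had 515 and 539 counts, then 91 and 80. It went from 46.97 ± 3.05 to 6.49 ± 0.644 CPM (SD, n = 2 each), 7.24-fold lower, again without overlap.

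GNL3L stood at 10.2 and 9.14 CPM without the complex and at 24.3 and 40.8 CPM with it. Both methylated libraries were higher, but they were far apart, at 32.5 ± 11.7 CPM against 9.68 ± 0.750 (SD, n = 2 each), 3.36-fold higher. CCNQ had 980 and 781 counts, then 3513 and 3685. Here the unmethylated libraries were the unequal ones, at 79.2 ± 20.2 CPM against 272.9 ± 6.96 (SD, n = 2 each), 3.45-fold higher. ZC3H18 had 12.7 and 7.40 CPM, then 34.6 and 39.9. It went from 10.04 ± 3.74 to 37.2 ± 3.77 CPM (SD, n = 2 each), 3.71-fold higher, and the groups did not overlap.

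In the fit of all 3823 testable sequence totals by edgeR's quasi-likelihood test, the 3 lower and the 3 higher loci were all called. Over all totals, 6.72% were called lower and 10.4% higher. The rule used this contrast, and nothing is read from that count. Among the 3248 sequences the log2 ratios of NFYA (−3.21), RBM23 (−2.86) and DLX1 (−2.85) ranked 1, 3 and 4 from the bottom. MED24, a Mediator subunit gene, was between them at −2.90, and the next after DLX1 was KLHDC3 at −2.04. From the top, ZC3H18 (1.89), CCNQ (1.78) and GNL3L (1.75) ranked 2, 4 and 5, behind GATA4 at 1.92 and just ahead of DICER1 at 1.69. The lower loci thus stand in a group of 4 apart from the rest, whereas the higher ones grade into their neighbours.

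The 3 tag copies of each locus gave the same direction. In DLX1 copy 1 held 38349, 51033, 7461 and 7377 counts in unmethylated replicates 1 and 2 and methylated replicates 1 and 2. Copy 2 held 5495, 7245, 1083 and 1096, and copy 3 held 14343, 18004, 2438 and 2269. Although the copies differed several-fold in depth, their log2 ratios were close, at −2.81, −2.77 and −3.004. Those of NFYA were −3.10, −3.60 and −3.25, with 16 and 17 methylated counts in its shallowest copy. Those of RBM23 were −2.93, −2.56 and −2.92.

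Among the higher loci, CCNQ copies gave 1.78, 2.14 and 1.75, and ZC3H18 copies 1.44, 1.88 and 2.26. The copies of GNL3L disagreed most. Copy 1 stood at 1.62, 1.25, 3.43 and 12.8 CPM in the same order of libraries, copy 2 at 6.68, 5.74, 12.6 and 15.0, and copy 3 at 1.91, 2.16, 8.24 and 12.97. Their log2 ratios were 2.50, 1.15 and 2.38, and the large gap between the methylated libraries lay in copy 1 above all. Without copy 1 the ratio of GNL3L was 1.57, an alternative chosen after seeing the data. In all 9 copies of the lower loci both methylated CPM values lay below both unmethylated ones, as in 22.5% of all 10602 oligonucleotides with a sufficient count. In all 9 copies of the higher loci both lay above, as in 26.3% of all.

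In DLX1 the loss was spread over nearly every position. Only 3 of the 141 positions of DLX1 had a mean under 10 counts per library, and all the others were lower in the methylated libraries, with log2 ratios from −4.30 to −1.21 and a median of −2.85. The fit of single positions called all but 4 of the 141 positions of DLX1 lower and 0 higher, beside 2.01% called lower of all 142938 positions tested. DLX1 was picked for its lower total, and its counts were deep. Fewer of its positions could be tested without either unmethylated library. Nothing is therefore read from the number of calls in DLX1 or from its contrast with all positions. In NFYA and RBM23 most positions held too few counts to be tested. The fit called 32 of 33 tested positions of NFYA and 8 of 8 of RBM23 lower, but without either unmethylated library only 5 and 0 could be tested. Most of these positions passed the filter on low counts only through the group in which they were high, and nothing is read from their number.

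Divided into 3 segments of equal length, the sequences show the same spread. In DLX1 the log2 ratio was −2.68 over positions −50 to −4, −2.79 over −3 to +43 and −3.42 over +44 to +90. The share of DLX1's own counts in that last segment was 17.8% ± 0.845 without the complex and 11.9% ± 0.555 with it (SD, n = 2 each). NFYA gave −3.28, −3.28 and −2.97 over the same segments and RBM23 gave −2.32, −3.004 and −3.12. The deepest loss thus lay towards the 3′ end in DLX1. No order is read from the segments of NFYA and RBM23, which held few methylated counts.

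The higher loci differed from one another in this respect. CCNQ was raised in each segment, with log2 ratios of 1.51, 1.81 and 1.80. Of its 43 positions with a mean of at least 10 counts per library, 42 were higher. A position could reach that mean through the methylated libraries alone, so nothing is read from this number. The exception was position +19, at −0.25. In ZC3H18 the first segment held 13 and 10 counts and then 9 and 15, a log2 ratio of −0.19. Its middle and last segments were at 2.19 and 1.80, so no rise was measurable over the first 47 nt, where counts were few. GNL3L gave 1.74, 2.29 and 1.28. By edgeR, 27 of 56 tested positions of CCNQ, 8 of 14 of ZC3H18 and 3 of 4 of GNL3L were called higher, beside 3.7% of all positions tested. Without either methylated library the positions deep enough to be tested fell to 29, 1 and 1, so many passed the filter only through the group in which they were high, and nothing is read from these counts either.

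Named positions were those with the highest level or the largest difference in each locus, the selected adenosine and other DRACN adenosines of sufficient depth. DLX1's most abundant position was −49, which had 7856 and 12815 counts, then 1760 and 1648. It lies within the opening TAG, and it took 15.2% and 15.7% of DLX1's counts without and with the complex, so it moved with the total. The first 5 positions together took 20.6% ± 2.11 and 20.5% ± 0.461 of DLX1 (SD, n = 2 each), against 3.93% to 4.16% in whole libraries. Without them the log2 ratio of DLX1 was still −2.85, which is also an alternative chosen after seeing the data.

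The DLX1 position with the largest loss relative to its total among those named was the U at position +42, in the 5-mer GGUAC between the first and the second purine run. It had 6569 and 7130 counts without the complex and 488 and 522 with it, and its share of DLX1 went from 10.3% ± 1.37 to 4.65% ± 0.294 (SD, n = 2 each). The log2 ratio of −3.99 compares with −2.85 for the whole sequence. The same 5-mer occurs again in DLX1, at position +7, upstream of the purine runs, a position picked out after its values were seen. It had 2209 and 2750 counts, then 957 and 978. At −1.58 it was lowered far less, so that the identical 5-mer moved by −3.99 in one place and −1.58 in the other. All 3 copies kept this order, with copy 1 going from 4735 and 5355 to 372 and 394 counts at position +42 and from 1339 and 1618 to 566 and 612 at position +7. GGUAC occurred in 5.62% of all sequences, and DLX1 was 1 of 10 with at least 2.

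With each position set against its sequence total in that library, 12 positions of DLX1 were called by edgeR, 6 on either side. Over all positions tested, 1.8% were called higher and 0.404% lower in this way. The 6 relatively higher ones (−39, −27, −23, −16, +7 and +8) all lay in the upstream part, outside the purine runs. The 6 relatively lower ones were +35, +39, +50, +65 and +66 within the runs and +42 between them. Positions +7, +8, +42 and +50 stayed called under all 10 alternatives to this fit. The other 8 were lost under 2 to 5 of them, and each of the 8 without at least 2 of the 4 libraries in turn. No position of NFYA, RBM23 or GNL3L was called against its total.

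Grouped by content, the purine runs of DLX1 lost more than the rest. Its 66 positions in runs of at least 8 purines took 31.5% ± 1.66 of its counts without the complex and 22.4% ± 0.464 with it (SD, n = 2 each), with a log2 ratio of −3.34 against −2.67 outside. The corresponding values were −3.43 and −3.11 in NFYA and −2.97 and −2.83 in RBM23. In NFYA the runs held 550 and 419 counts and then 44 and 63, a share of 32.3% ± 2.82 and then 27.8% ± 3.12 (SD, n = 2 each). In RBM23 they held 84 and 90 and then 14 and 12. Against the longest run alone, the order in RBM23 was the opposite, at −2.77 inside it and −2.87 outside, on 12 and 8 methylated counts inside. An order between runs and the rest is therefore read in DLX1 only, where the counts are deep. Positions outside the runs of at least 8 were themselves lowered 6.37-fold in DLX1, 8.66-fold in NFYA and 7.13-fold in RBM23.

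By base, every base of the lower loci was lowered. DLX1 had log2 ratios of −2.95 at A, −2.45 at C, −3.09 at G and −2.73 at U. NFYA had −3.25, −3.43, −3.46 and −2.93 in that order, and RBM23 had −3.35, −1.48, −2.97 and −2.93. The value at C in RBM23 rested on 37 and 34 counts, then 21 and 9.

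In CCNQ the ratios were 2.19 at A, 2.05 at C, 1.20 at G and 1.80 at U. Uridines took most of its counts in both groups, at 57.1% ± 6.37 and 58.7% ± 1.57 (SD, n = 2 each). GNL3L had 2.05, 1.65, 1.38 and 1.79. ZC3H18 had 2.20 at A, 2.60 at G and 1.83 at U, while C stood at −0.25 on 22 and 4 counts, then 12 and 15.

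DRACN adenosines, the context of m6A writing, held a small part of these changes. In the lower loci they made up 0.945% of the loss of NFYA, 1.03% of that of DLX1 and 2.44% of that of RBM23. They were 4, 1 and 3 of the 141 positions there, with log2 ratios of −4.93, −2.51 and −3.82. In NFYA they held only 14 and 12 counts, then 1 and 0, and in RBM23 11 and 13, then 0 and 2. No difference from the whole sequence is therefore read in these 2 loci. In the higher loci they made up 6.01% of the gain of CCNQ, 12.2% of that of GNL3L and 14.9% of that of ZC3H18. They were only 4, 5 and 5 of the 141 positions, with log2 ratios of 3.55, 4.91 and 4.48. Their unmethylated counts were few, at 15 and 9, 2 and 0, and 4 and 0. Leaving DRACN adenosines out of the totals changed the log2 ratios little. These became −3.20 in NFYA, −2.86 in DLX1, −2.84 in RBM23, 1.63 in GNL3L and 1.74 in both CCNQ and ZC3H18. All 6 loci stayed called in that fit.

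The selected adenosine of DLX1 is in a GGACC. It stood at 42.7 and 84.97 CPM without the complex and at 10.98 and 11.4 CPM with it, a log2 ratio of −2.51. Its share of DLX1 was 1.05% ± 0.403 and then 1.36% ± 0.0668 (SD, n = 2 each), a difference within the spread of the unmethylated libraries. In NFYA the selected GAACU had 6 and 6 counts and then none in either methylated library, at least 2.35-fold lower against a floor of 3 counts per library. In RBM23 the selected AGACC had 6 and 7 counts, then 0 and 1, and a further AGACA at position +27 had 4 and 6, then 0 and 0. With 1 methylated count, the AGACC of RBM23 was 15.2-fold lower, with a 95% counting interval of 2.29 to 647. Of the DRACN adenosines of the lower loci, only the GGACC of DLX1 was deep enough to be tested. It was called lower by edgeR, and it was not called against its sequence total.

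The most abundant positions of NFYA were +1, +28 and +37, a C next to the selected adenosine, a U and a G. Position +1 had 53 and 94 counts, then 5 and 11. Position +28 had 10.9 and 4.41 CPM, then 0.686 and 0.754, and position +37 had 12.3 and 5.32 CPM, then 1.14 and 1.06. Their log2 ratios of −3.41, −3.41 and −3.002 lay around that of the whole sequence. The lowest log2 ratio, at position +31, rested on 1 methylated count, against 35 and 28 counts in the unmethylated libraries. RBM23 was spread more evenly, with uridines at −4, +42 and +55 in front. The U at −4 had 34 and 26 counts, then 4 and 4, that at +42 had 27 and 36, then 7 and 2, and that at +55 had 30 and 33, then 3 and 4. These positions of RBM23 were named for their level and difference in the same libraries, and their methylated counts were few, so their direction is a description only.

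Each of the higher loci held at least 1 GGAC motif, and the adenosine with the largest gain was in a GGAC in all 3. In CCNQ the GGACA at position +51 had 0.572 and 0.0831 CPM without the complex, which are 6 and 1 counts, and 10.2 and 10.5 CPM with it. This is a log2 ratio of 4.98, against 1.78 for the whole sequence, and its share of CCNQ went from 0.370% ± 0.342 to 3.79% ± 0.0299 (SD, n = 2 each). The gain was seen in each copy, from 0 and 0 to 12 and 13 counts in copy 1, from 0 and 0 to 6 and 16 in copy 2, and from 0.572 and 0.0831 to 8.85 and 8.29 CPM in copy 3.

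In ZC3H18 the GGACA at position +43 had 4 and 0 counts, then 51 and 54, a log2 ratio of 4.38. It took 1.504% ± 2.13 of ZC3H18's counts before and 10.7% ± 0.743 after (SD, n = 2 each). These were the only positions of CCNQ and ZC3H18 called against the sequence total. Both positions passed the filter on low counts only through the methylated libraries, in which they were high. Without either methylated library neither position could be tested, so nothing is read from these calls. The call in ZC3H18 was also lost without unmethylated replicate 2 and in DESeq2. Fewer positions of both loci could be tested without a methylated library, as given above.

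In GNL3L the selected GGACU had 0 and 0 counts and then 7 and 12, at least 2.69-fold higher against the same floor. The second GGACU of GNL3L, at position +22, had 1 and 0 counts, then 12 and 29. With a single unmethylated count its ratio was 34.99, with a 95% counting interval of 5.94 to 1415, which covers counting error only. Both adenosines were nearly empty in the unmethylated libraries and higher in both methylated ones.

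Other DRACN adenosines of these loci moved less or stayed near 0. The selected UAACC of CCNQ had 3 and 5 counts, then 15 and 8, and its share of CCNQ was 0.473% ± 0.236 before and 0.322% ± 0.148 after (SD, n = 2 each). The GAACU at position +43 had 6 and 2, then 11 and 18, and the GGACU at position +27 had 0 and 1, then 3 and 8. In ZC3H18 the selected AGACC had 0 and 0 counts, then 1 and 1, the UGACU at position +12 had none in any library, and the AGACU at position −17 had 1 count in 1 methylated library. On these few counts the selected adenosine of CCNQ was 2.49-fold higher in the methylated libraries, which is below the 3.45-fold of the whole sequence. The GGACA at +51 was 31.6-fold higher. The selected adenosine of ZC3H18 held too few counts to show a difference.

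More of the gain in CCNQ lay at the 37 positions within 5 nt of the DRACN adenosines than on the 4 adenosines themselves. The adenosines rose more, with a log2 ratio of 3.55 on 15 and 9 unmethylated counts. Positions within 5 nt of a DRACN adenosine, the adenosine left out, had 540 and 387 counts, then 2037 and 2101. They made up 59.4% of CCNQ's gain, and their share of its counts was already 52.3% ± 3.92 before and was 57.5% ± 0.686 after (SD, n = 2 each). Their log2 ratio was 1.91, against 1.51 farther than 5 nt from every such adenosine. The U at position −3, directly before the selected UAACC, alone had 265 and 130 counts, then 769 and 823. Its share of CCNQ was 21.8% ± 7.35 before and 22.1% ± 0.314 after (SD, n = 2 each), so it followed the total. The U at −2 went from 2.10 and 1.58 to 13.2 and 10.3 CPM (log2 ratio 2.67), and the U at +45 from 31 and 10 to 187 and 147 counts (2.74).

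The other higher loci were measured less deeply. Within 5 nt and beyond, the log2 ratios were 1.75 and 1.74 in ZC3H18 and 1.81 and 1.56 in GNL3L, both on few counts, so that GNL3L had the same order as CCNQ and ZC3H18 had nearly equal values. The leading positions of ZC3H18, an A at +15 and a U at +16, had 5 and 10, then 36 and 39 counts, and 7 and 3, then 29 and 36 counts. In GNL3L the leading position was a U at −31, with 16 and 8 counts, then 10 and 78. Only methylated replicate 2 was high there, and 51 of its 78 counts came from copy 1 and 24 from copy 3. The U at position −24 of GNL3L, with 7 and 3, then 16 and 45 counts, was also led by that library, whereas the U at +56 was not, with 7 and 7, then 26 and 34.

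How far the profile within a sequence changed could be compared with replicate noise in the deeper loci. As a distance, the share of counts that would have to move between positions to turn one profile into another was taken, which runs from 0 to 1. In DLX1 it was 0.187 between groups, 0.0910 between the unmethylated and 0.0812 between the methylated replicates. The medians over 2243 sequences with at least 1000 counts in each group were 0.183 between groups, 0.164 between the unmethylated and 0.146 between the methylated replicates. The distance of DLX1 between groups was thus near the median, while those between its replicates were well below it. Counting error enlarges this distance where counts are few, and DLX1 was far deeper than the 1000 counts required. The median is therefore not a like comparison for DLX1, whose distance between groups was above both of its own replicate distances. In CCNQ the distance between groups of 0.258 was no larger than the 0.279 between its unmethylated replicates. The other 4 loci had fewer than 1000 counts in a group.

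The lower sequences shared a high purine content that the rule did not use. Purines made up 71.6% of DLX1, 65.2% of RBM23 and 63.1% of NFYA, against a median of 51.1% over all 3949 sequences. In the last 61 nt they made up 95.1% of DLX1, the highest of all sequences, 70.5% of RBM23 and 75.4% of NFYA. The longest purine run was 25 nt in NFYA (positions +39 to +63), 23 nt in DLX1 (+45 to +67) and 12 nt in RBM23 (+43 to +54), against a median of 7. The motif GAGAG, counted on the RNA strand with overlaps, occurred 8 times in NFYA, 5 times in DLX1 and not in RBM23, and in 18.6% of all sequences at least once. Purine runs, the last 61 nt and GAGAG were not among the planned features, and their values are a description.

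The higher sequences held a smaller share of purines than the lower ones, but the contrast was not sharp for each feature. Purines made up 56.7% of GNL3L, 51.1% of ZC3H18 and 46.1% of CCNQ, and the longest runs were 11, 5 and 5 nt. The run of GNL3L was thus close to the 12 nt of RBM23. In the last 61 nt purines made up 62.3%, 60.7% and 45.9% in the same order, against a median of 50.8%. GAGAG occurred 1 time in each higher sequence. GGAC, counted on the RNA strand, occurred 2 times in GNL3L and CCNQ, 1 time each in ZC3H18 and DLX1 and in neither NFYA nor RBM23, while 66.9% of all sequences held at least 1. DRACH motifs numbered 4, 1 and 3 in NFYA, DLX1 and RBM23 and 5, 4 and 5 in GNL3L, CCNQ and ZC3H18, so that the lower and higher loci met at 4. The mean predicted pairing of bases was 46.1% in DLX1 and RBM23 and 51.2% in NFYA, below the median of 58.2%, and it was 54.8%, 57.3% and 64.6% in GNL3L, CCNQ and ZC3H18.

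The same features were set against the log2 ratio over the other sequences with at least 100 counts, with the 6 loci left out. In 2737 sequences with a longest purine run of up to 10 nt the median log2 ratio was 0.02, and in 424 with a run of 11 to 15 nt it was −0.03. It was −0.34 in 59 sequences with a run of 16 to 20 nt, of which 49 were below 0. In 22 sequences with a longer run it was −0.73, with 20 below 0 and none as low as NFYA or DLX1, the lowest being −1.83. RBM23's run of 12 nt puts it among sequences whose median was near 0.

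For GGAC the medians were −0.11 in 986 sequences without the motif, 0.004 in 1207 with 1 copy, 0.11 in 685 with 2 copies, 0.16 in 265 with 3 and 0.19 in 99 with more. Across these 3242 sequences the correlation with the log2 ratio was −0.23 for the longest purine run (Spearman's rho −0.15) and 0.25 for the number of GGAC (rho 0.27). It was 0.15 for the number of DRACH (rho 0.16) and 0.21 for predicted pairing (rho 0.19). The correlations are weak and descriptive, since the sequences share the same 4 libraries and these features also follow base composition.

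The ends of the ranking were looked at without the 6 loci. Of the 10 sequences with the lowest ratios the other 7 had 56.7% to 66.7% purines and a longest run of 9 to 20 nt, and 3 of them held a GGAC. Of the 10 with the highest ratios the other 7 had 41.8% to 56.7% purines and a longest run of 3 to 10 nt, and all 7 held a GGAC. These sequences were picked by the same ratio as the 6 loci, and the ranges are a description.

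The loci most like the members were sought by the distance between centred log2 CPM over the 4 libraries, among 2498 loci in exactly 1 gene. The nearest locus to NFYA, DLX1 and RBM23 alike was MED24, at distances of 0.371, 0.373 and 0.204. MED24 had 1375 and 1255 counts, then 207 and 210, with 65.96% purines and a longest run of 10 nt. KLHDC3 came second for all 3, at 1.20, 0.933 and 0.864, with 601 and 514 counts, then 164 and 157. The nearest to CCNQ and ZC3H18 was DICER1 (0.216 and 0.276), the microRNA-processing enzyme gene, with 236 and 181 counts, then 708 and 895, and next came GATA4 (0.248 and 0.408). The nearest to GNL3L were SON (0.285) and XAB2 (0.333). Both also had more counts in methylated replicate 2 than in replicate 1, with 2307 and 3038 in SON and 828 and 1385 in XAB2. As the distance was taken over the 4 libraries, it favours loci with a like replicate pattern.

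Other sequences from the same genes did not shift as much. Of 6 such sequences, from DLX1, NFYA, RBM23 and ZC3H18, edgeR called 1 lower and 0 higher, with a median log2 fold change of −0.14, beside −0.003 over all 3823 totals. The exception was the second DLX1 sequence, with its adenosine at coordinate 172088861 on chromosome 2, which had 471 and 501 counts, then 331 and 310. Its log2 fold change was −0.83 ± 0.20 (SE; edgeR adjusted p = 0.00414), and its longest purine run was 12 nt. The second NFYA sequence, at coordinate 41097867 on chromosome 6, had 159 and 188 counts, then 214 and 348, and a log2 fold change of 0.44 (edgeR adjusted p = 0.241). The 2 further RBM23 sequences were at 0.15 and −0.21 and those of ZC3H18 at −0.38 and −0.08, none of them called.

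The families of these genes gave few calls. Of 10 sequences from RBM genes besides the member, edgeR called 1 lower, that of RBMX2, a spliceosomal RNA-binding protein gene (log2 fold change −0.70 ± 0.18 SE, adjusted p = 0.00842), and 0 higher, with a median of −0.11. Of 6 from ZC3H zinc finger genes none was called, with a median of −0.09. Of 5 from cyclin genes 2 could be tested, and CCNL2, a cyclin of the splicing machinery, was called higher (0.77 ± 0.21 SE, edgeR adjusted p = 0.0109). From NFY and DLX genes the only further sequences were those of NFYA and DLX1 described above, and no further sequence was assigned to a GNL gene.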

How the data were processed

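The authors deposited raw counts per position, 141 for each oligonucleotide and library, without normalization. STAR 2.7.3a, bedtools 2.27.1 and FastQC 0.11.8 were used, per the submitters' processing notes. What each did, whether duplicate reads were removed and which build was used is not given in the sources used here. Coordinates were checked against GRCh38.p14, in which 25-nt stretches of 76 of 76 loci found in RefSeq promoter sequences lay at the same position and strand. Symbols came from RefSeq genes, and 3033 of 3488 loci lay in exactly 1.

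Libraries were grouped by their treatment labels. Counts of tag copies were summed per sequence. Totals, positions, and positions with the log of the sequence total as offset were fitted over all features with edgeR 4.0.16 (quasi-likelihood F test, two-sided, trimmed mean of M values scaling, at least 10 counts in at least 2 libraries, Benjamini-Hochberg threshold 0.05) in R 4.3.3. P-values measure the spread between these libraries, which may be technical. Log2 ratios compare mean CPM on library totals. A fold against a group at 0 used a floor of 3 counts per library. Intervals and floors cover counting error only. ViennaRNA 2.7.2 predicted pairing, and summaries used Python 3.11.15, scipy 1.17.1, numpy 2.4.6 and pandas 2.3.3.

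The members, gene lists and the rule for named positions (the 3 highest levels and 3 largest differences in mean CPM per locus, the selected adenosine, and other DRACN adenosines of at least 10 mean counts) were chosen with earlier results of these data known. Similar loci were the 2 nearest with a mean of at least 100 counts. In counts simulated from these libraries the fit of totals recovered 50 of 50 features raised 4-fold and 49 of 50 lowered 4-fold, and the fit of positions 43 and 23. Alternatives were DESeq2 1.42.0, library totals as scaling, other filters, a replicate block, single copies, omitted positions and omitted libraries.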

Additional observations from a re-analysis of the deposited data

How the results depend on the processing

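The 6 log2 ratios kept their sign in all 73 alternatives, and all 6 totals stayed called in each refit of summed totals. The loci were picked for this change in these same libraries, so this describes the processing and is no support for the change. Without 1 library at a time the ratios ran from −3.40 to −2.99 in NFYA, −2.94 to −2.75 in DLX1, −2.96 to −2.76 in RBM23, 1.33 to 2.08 in GNL3L, 1.55 to 2.07 in CCNQ and 1.55 to 2.33 in ZC3H18. Single copies moved beyond the replicate spread in NFYA (copy 2, −3.60), DLX1 (copy 3, −3.004), RBM23 (copy 2, −2.56) and GNL3L (2.50, 1.15 and 2.38). Over all features, 30 of 40 counts of calls under whole-design alternatives were within 1.5 times the reported one. DESeq2 called 3044 positions higher and 1824 lower (5282 and 2873 by edgeR), and 1448 and 221 against the total (2575 and 577). With each copy as its own feature, 836 totals were higher and 464 lower (397 and 257 with copies summed).

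Same-numbered libraries deviated in opposite directions (r = −0.312 over 3823 sequences), so the numbers were not taken as pairs. With the replicate block, 316 totals were higher and 189 lower, 5608 and 3028 positions, and 3033 and 793 against the total, and the mean of log2 ratios within numbers was 1.70 in GNL3L. With crossed pairing, an alternative chosen after seeing the data, the counts were 616 and 473 totals, 4992 lower positions and 1120 lower against the total.

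Without 1 library, 245 to 355 totals were higher and 170 to 230 lower, 1386 to 6052 and 478 to 3140 positions, and 1203 to 3322 and 180 to 1285 against the total. Totals dropped most without unmethylated replicate 2 (245 and 170). Positions dropped without methylated replicate 1 (1829 and 981) and 2 (1386 and 478), and against the total without methylated replicate 1 (1203 and 180) and 2 (1420 higher), while 1285 were lower without unmethylated replicate 2. Of the 8 positions called in RBM23, 0 were deep enough to be tested without either unmethylated library and 1 stayed called without methylated replicate 2. In NFYA 4 and 5 of 32 stayed called without unmethylated replicates 1 and 2, where 5 were tested, and 14 without methylated replicate 2. Of the 8 in ZC3H18, 1 stayed called in DESeq2 and 0 without either methylated library, where 1 was tested, and of the 3 in GNL3L 0 stayed called in those fits. Depth thus limits single positions of NFYA, RBM23, GNL3L and ZC3H18, and their totals do not share this limit. The cause of the other differences was not tested.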
